A study of Mus musculus with 6 samples.

Results

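Small nucleolar RNA (snoRNA) host genes carry snoRNAs in their introns, and the noncoding ones are transcripts whose spliced RNA has no known protein product. The 8 noncoding snoRNA host genes described here are Gas5, Snhg1, Snhg3, Snhg5, Snhg6, Snhg8, Snhg12 and Snhg15. They were taken by name, with earlier results of these data known, and matched by symbol to the Ensembl identifiers of a table of 55487 genes. The table holds RNA-seq of GFP+ bone marrow cells from the femora and tibiae of C57BL/6 CD45.1+ recipients, 3 libraries labelled PBS and 3 labelled pIpC. In all 6 libraries the donor cells were CD45.2+ Mx1-Cre Brd9fl/fl MA9, that is, bone marrow cells transformed by the MLL-AF9 fusion oncogene from a retroviral construct that also encodes GFP. Recipients were given 3 injections of PBS or of pIpC at 20 mg/kg from the day after transplantation, and cells were prepared 10 days after injection.

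pIpC (polyinosinic-polycytidylic acid) imitates viral double-stranded RNA. It raises interferon, which switches on the Mx1 promoter and so Cre, and Cre then removes the floxed exons of Brd9, a subunit of the noncanonical BAF chromatin remodeling complex. Only the second group received pIpC, so the agent and the deletion cannot be told apart. The labels state lethal irradiation of the recipients in 2 doses of 450 cGy and GFP+ cells, whereas the study's methods state a sublethal dose and c-Kit+ cells. The recipients were 6 weeks old per the methods. The labels do not say whether each library came from its own recipient, so p-values measure the spread between these samples, which may be technical.

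In general, a snoRNA guides the modification of ribosomal RNA or other RNA at a chosen base. Box C/D snoRNAs guide methylation of the ribose and box H/ACA snoRNAs guide conversion of uridine to pseudouridine. The host is transcribed and spliced, the snoRNA is trimmed out of the freed intron and protected by its core proteins, and the remaining spliced RNA of many noncoding hosts is read by ribosomes and then broken down by nonsense-mediated decay. Many hosts start with a run of C and T bases, the 5 prime TOP motif, which they share with the genes of the translation machinery. Gas5 was first known as a transcript that builds up in cells arrested in growth.

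Brd9 checks the labels. The normalized count is the read count divided by a size factor for each library, and values across libraries are given in the order of replicates 1 to 3. Brd9 was at 1927, 1946 and 1632 across the PBS libraries and 2036, 2263 and 2011 across those labelled pIpC. All values labelled pIpC were above all PBS values (exact permutation test, 2-sided p = 0.1, the smallest that 3 libraries against 3 allow), and the log2 fold change was 0.20 (standard error, SE, 0.13, limma adjusted p = 0.259 after Benjamini-Hochberg correction). With each library's trend on transcript length removed the value turned to -0.03 and did not pass. The whole-gene count, which includes the exons outside the floxed ones, thus shows no loss of Brd9, and the groups are called by their labels throughout. PBS replicate 3 stood apart from the other PBS libraries, with short transcripts high and long transcripts low. Results are therefore given with and without it. Reads on genes numbered 19277439 to 23586722 per library.

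The snoRNAs are the part of each host that leaves the intron, and examples from 7 of the 8 members are shown with the boxes that place them in a class. GENCODE M21 (GRCm38) annotates 30 snoRNA entries at 28 loci within the 8 members, with 10 entries in Gas5, 8 in Snhg1, 5 in Snhg12, 2 each in Snhg3 and Snhg5, and 1 each in Snhg6, Snhg8 and Snhg15. Of the 30 entries, 18 held both a C box spelled TGATGA in their first part and a D box spelled CTGA near their end, 4 held the D box alone, 7 ended in ACA and 3 further bases, and 1 held none of these. The sequences are those of the GENCODE transcripts, 5′ to 3′, with these boxes in capitals.
Snord47 in Gas5, chr1:161038082-161038158, plus strand: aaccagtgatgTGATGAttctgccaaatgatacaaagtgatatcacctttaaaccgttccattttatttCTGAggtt
Gm25855 in Snhg1, chr19:8723993-8724064, plus strand: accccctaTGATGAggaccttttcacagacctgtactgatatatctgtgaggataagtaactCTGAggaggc
Snord50a in Snhg5, chr9:88521529-88521600, minus strand: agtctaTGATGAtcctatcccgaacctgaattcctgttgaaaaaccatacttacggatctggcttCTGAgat
Snord50b in Snhg5, chr9:88521797-88521868, minus strand: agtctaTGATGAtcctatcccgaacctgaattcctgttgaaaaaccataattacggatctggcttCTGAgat
Snord87 in Snhg6, chr1:9942463-9942549, minus strand: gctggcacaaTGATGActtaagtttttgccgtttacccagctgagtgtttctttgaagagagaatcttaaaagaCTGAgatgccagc
Snord99 in Snhg12, chr4:132310691-132310764, plus strand: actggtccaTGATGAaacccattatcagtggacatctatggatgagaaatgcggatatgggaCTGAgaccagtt
Snora24 in Snhg8, chr3:123507937-123508066, minus strand: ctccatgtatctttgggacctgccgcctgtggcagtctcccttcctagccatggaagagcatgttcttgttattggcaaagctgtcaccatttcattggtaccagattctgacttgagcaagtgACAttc
Snora9 in Snhg15, chr11:6528033-6528165, minus strand: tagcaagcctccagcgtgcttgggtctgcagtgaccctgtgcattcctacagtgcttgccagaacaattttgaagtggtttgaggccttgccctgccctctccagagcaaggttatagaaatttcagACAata

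Both snoRNAs of Snhg5 are 72 bases long and differ at 1 base, C50A, with Snord50a as the reference and positions counted from 1 at the 5′ end.

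**Figure D1:**
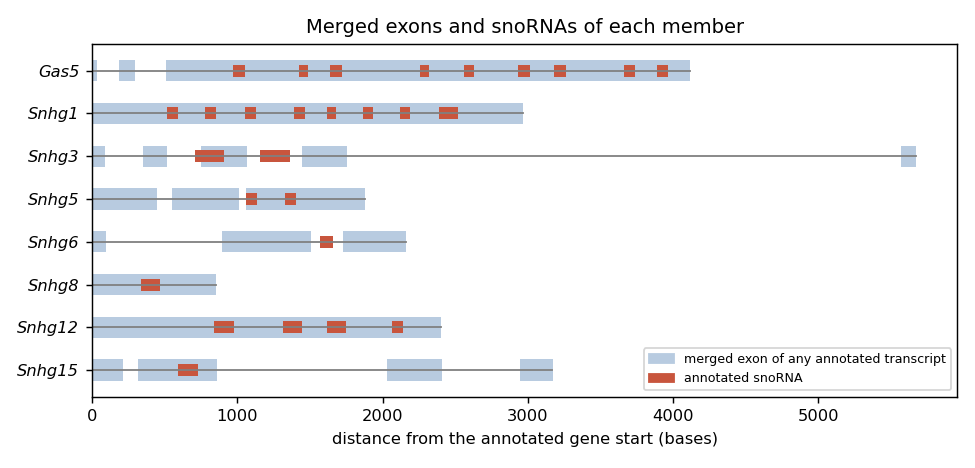
Merged exons of all annotated transcripts (light blue) and annotated snoRNAs (red) of the 8 members, drawn to scale against the distance in bases from the annotated gene start. In Gas5, Snhg1, Snhg5, Snhg8, Snhg12 and Snhg15 every snoRNA lies within an exon of at least 1 annotated transcript, whereas the snoRNA of Snhg6 lies between exons.

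The annotation of these hosts bears on what a gene count holds. Transcripts that keep an intron make up 20 of the 25 of Gas5 and 14 of the 18 of Snhg1. With all transcripts merged, exons covered 91.3% of the span of Gas5, 92.0% of Snhg5 and 100% of Snhg1, Snhg8 and Snhg12, but 17.4% of Snhg3, 42.9% of Snhg15 and 53.1% of Snhg6. Only 2 of the 30 snoRNA entries, Snord87 and Snora73b in Snhg3, lay outside the merged exons of their host. Median transcript lengths ran from 437 bases for Snhg3 to 915.5 bases for Snhg12.

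Of the 30 snoRNA entries, 29 had no read in any library. The exception was Snord87, with 10, 27 and 28 reads across the PBS libraries and 3, 6 and 5 across those labelled pIpC. It is also the only entry of the 30 whose bases lay clear of the exons of every other gene. All 3 libraries labelled pIpC were below all PBS libraries, with a log2 fold change of -1.92 (SE 0.56), and -1.59 without PBS replicate 3. Snord87 reached the mean normalized count of 10 needed for the test through PBS alone, as no library labelled pIpC was above 6.13. Its fold change is therefore a description, and no p-value is given. Among all 1507 snoRNA genes of the table, 17.3% of the 1321 clear of other genes' exons had a read, against 8.1% of the 186 under an exon of another gene. The RNA was selected for poly(A) tails, which snoRNAs lack, and how the counting treated reads on bases shared by genes is not given in the sources used here, so these counts are no measure of mature snoRNA.

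Of the 8 members, 7 were lower in the libraries labelled pIpC, with no overlap between the groups, and 1, Snhg3, was barely counted. The test took the 15020 genes whose normalized counts averaged 10 or more across all 6 libraries, and of these 26.3% were lower with no overlap. All 7 counted members passed the test on log2(normalized count + 1) (limma, Benjamini-Hochberg adjusted p under 0.1 over all genes tested), where 20.4% of genes tested were lower past the threshold. Each of the 7 had a mean above 200 in both groups, so none passed the filter through its high group alone. Their median log2 fold change was -1.19, beside 0.01 for all genes tested. As the members were chosen with earlier results of these data known, these counts describe them and are no independent test. Without PBS replicate 3 all 7 still passed, beside 30.6% of all genes lower, and their median was -0.84. These are bulk samples, so fewer cells of a type and less RNA per cell cannot be told apart.

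Gas5 on chromosome 1 (161034422 to 161038539) hosts the most snoRNA entries of the 8. Gas5 was counted at 6884, 7679 and 11851 across the PBS libraries and 5732, 4562 and 4750 across those labelled pIpC. PBS replicate 3 was the highest library and the lowest PBS library was 1.20 times the highest library labelled pIpC, the narrowest gap of the 7. The group values were 8805 ± 2668 for PBS and 5015 ± 628 for pIpC (SD, n = 3), a log2 fold change of -0.78 (SE 0.23, limma adjusted p = 0.0359). Without PBS replicate 3 it was -0.54 (limma adjusted p = 0.00176). The call was lost without pIpC replicate 2 (limma adjusted p = 0.133) and without pIpC replicate 3 (limma adjusted p = 0.124). It held without pIpC replicate 1 (limma adjusted p = 0.0681).

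Snhg1 on chromosome 19 (8723475 to 8726443) gives rise to a series of box C/D snoRNAs and lies head to head with Slc3a2. Counts of 2323, 2440 and 3705 across the PBS libraries stood against 1774, 1362 and 1403 across those labelled pIpC. Every PBS library was above every library labelled pIpC. The log2 fold change was -0.88 (SE 0.21, limma adjusted p = 0.0186), and -0.66 without PBS replicate 3.

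Snhg5 on chromosome 9 (88521050 to 88522929) carries the nearly identical Snord50a and Snord50b. It was counted at 1568, 1756 and 2646 across the PBS libraries and at 969, 680 and 823 across those labelled pIpC. The groups were well apart, with the lowest PBS library at 1.62 times the highest library labelled pIpC. The log2 fold change was -1.25 (SE 0.23, limma adjusted p = 0.00621), and -1.02 without PBS replicate 3.

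Snhg6 on chromosome 1 (9941959 to 9944118) is the host of Snord87. Its counts were 609.97, 611 and 1458 across the PBS libraries and 334, 262 and 296 across those labelled pIpC. PBS replicates 1 and 2 were nearly equal and replicate 3 was 2.39 times their mean. The log2 fold change was -1.46 (SE 0.35, limma adjusted p = 0.0175), and -1.04 without PBS replicate 3, with a standard error of 0.12. The counts of the host and of the Snord87 entry, which lies outside the host's exons, were thus both lower. As stated above, the count of Snord87 is no measure of mature snoRNA, and Snord87 passed the filter through PBS alone.

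Snhg8 on chromosome 3 (123507552 to 123508404) hosts the H/ACA snoRNA Snora24. It had 812, 844 and 2030 normalized counts across the PBS libraries and 580, 429 and 471 across those labelled pIpC. PBS replicate 3 was 2.45 times the mean of the other PBS libraries, the largest such ratio of the 7. The log2 fold change of -1.19 (SE 0.36, limma adjusted p = 0.0421) became -0.76 (limma adjusted p = 0.000916) without that library. Leaving out pIpC replicate 2 (limma adjusted p = 0.139) or pIpC replicate 3 (limma adjusted p = 0.125) ended the call.

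Snhg12 on chromosome 4 (132308623 to 132311024) holds snoRNAs of both classes. Its counts were 833, 822 and 1349 across the PBS libraries and 579, 359 and 471 across those labelled pIpC. Among the 7 it varied most within the group labelled pIpC, with a coefficient of variation of 23.5%. The log2 fold change was -1.08 (SE 0.26, limma adjusted p = 0.0183), and -0.84 without PBS replicate 3.

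Snhg15 on chromosome 11 (6525591 to 6528760) hosts the H/ACA snoRNA Snora9. Counts were 526, 620 and 936 across the PBS libraries and 252, 198 and 195 across those labelled pIpC. The lowest PBS library was 2.09 times the highest library labelled pIpC, the widest gap of the 7. Its log2 fold change of -1.65 (SE 0.24, limma adjusted p = 0.00224) was the lowest among the members, and 5.44% of all genes tested were lower still. Without PBS replicate 3 it was -1.42 (limma adjusted p = 5.01e-05).

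Snhg3 on chromosome 4 (132348014 to 132353686) hosts the H/ACA snoRNAs Snora73a and Snora73b. It had 8, 2 and 3 reads across the PBS libraries and 20, 7 and 9 reads across those labelled pIpC, a mean normalized count of 8.03 over the 6 libraries, and did not enter the test. In normalized counts the libraries labelled pIpC lay above the PBS libraries by a narrow margin, 7.15 for the lowest against 6.92 for the highest. With no filter on low counts its log2 fold change was 1.33 (SE 0.59, limma adjusted p = 0.164 over 27901 genes), so no difference was detectable at these few reads. Exons of other genes cover 821 of its 986 exon bases (83.3%). Of these, 705 lie under Gm17300 on the other strand and 135 under Rcc1 on its own strand. Among the other members only Snhg6 shares exon bases, 11.1% of them with Mcmdc2.

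**Figure D2:**
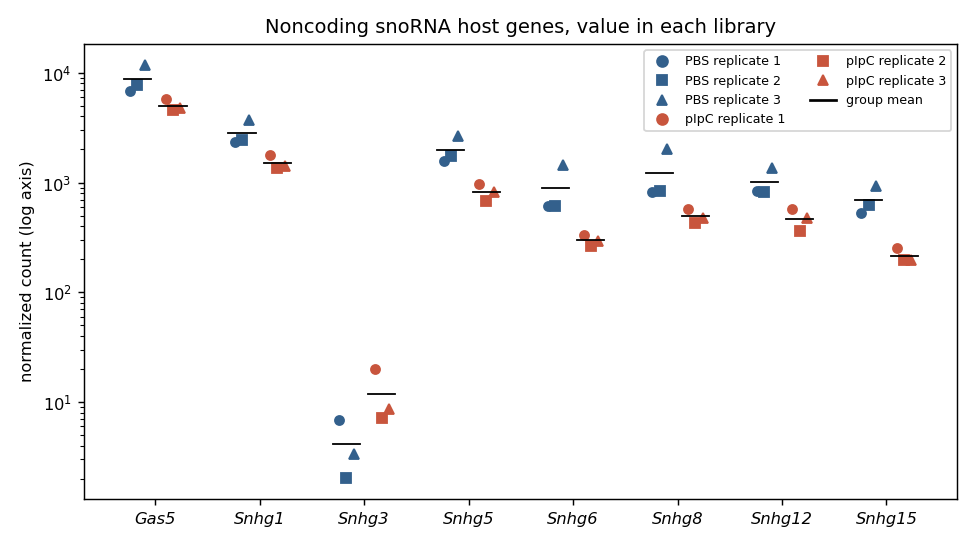
Normalized count of each member in each library on a log axis, PBS in blue and pIpC in red, with replicates 1 to 3 as circles, squares and triangles and the group mean as a black line. In 7 members every PBS value lies above every pIpC value and PBS replicate 3 is the highest, and Snhg3 lies at 20.0 or below in every library.

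Per kilobase of median transcript, Gas5 had the highest level in both groups, 13998 ± 4242 (SD, n = 3) normalized counts per kilobase in PBS and 7972 ± 999 in the other group. Snhg1 came next, at 4685 ± 1272 and 2511 ± 376 (SD, n = 3), and its range was apart from those of Gas5 and Snhg5 in both groups. In PBS the levels of Snhg5, Snhg8, Snhg6, Snhg15 and Snhg12 then followed, from 2392 down to 1094 per kilobase, and each overlapped its neighbour in that order. In the libraries labelled pIpC, Snhg5 (991) and Snhg8 (934) overlapped each other and lay above Snhg6 (532), Snhg12 (513) and Snhg15 (360.2), where neighbours overlapped again. Snhg3 was last, at 9.41 and 27.3 per kilobase. This order depends on the length chosen. Merged exons span 2969 bases in Snhg1, 1730 in Snhg5 and 853 in Snhg8, and levels per kilobase of merged exon were not compared.

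Summed over the 8 members, normalized counts ran from 13563 to 23978 in PBS and from 7859 to 10239 in the libraries labelled pIpC. The sum was 0.0701% to 0.0998% of a PBS library and 0.0344% to 0.0441% of a library labelled pIpC. Gas5 made up 50.7% ± 1.3 (SD, n = 3) of the sum in PBS and 56.8% ± 1.1 in the other group, with no overlap (exact permutation test, 2-sided p = 0.1, the smallest this design allows). The log2 fold changes ran from -1.65 for Snhg15 to -0.78 for Gas5. Of the 6 neighbouring pairs in that order, Snhg15 to Snhg6, Snhg6 to Snhg5, Snhg5 to Snhg8 and Snhg8 to Snhg12 differed by 0.06 to 0.21, with standard errors of 0.20 to 0.22 and exact permutation p of 0.4 to 0.9. The step from Snhg12 to Snhg1 was 0.20 (SE 0.12) and that from Snhg1 to Gas5 was 0.10 (SE 0.039), each with an exact permutation p of 0.1, the smallest allowed.

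**Figure D3:**
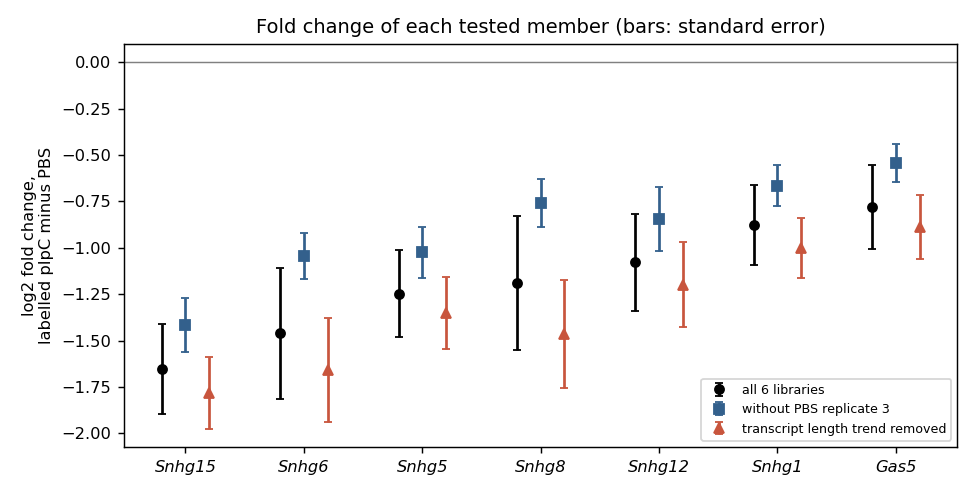
Log2 fold change of the 7 tested members, labelled pIpC minus PBS, with bars for the standard error, from all 6 libraries (black), without PBS replicate 3 (blue) and with each library's trend on transcript length removed (red). All 21 points lie below 0, from -1.78 for Snhg15 to -0.54 for Gas5.

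Short transcripts were high in PBS replicate 3. Relative to the mean of PBS replicates 1 and 2, its median difference in log2(normalized count + 1) was 0.65 for genes with a median transcript under 500 bases, 0.29 at 500 to 749 bases, 0.26 at 750 to 999 bases and -0.76 at 5000 bases or more. The 7 tested members, at 528 to 915.5 bases, stood 0.64 to 1.29 higher in that library, all of them above the median of their length bin. The libraries labelled pIpC minus PBS replicates 1 and 2 gave medians of -0.03 at 500 to 749 bases and -0.01 at 750 to 999 bases, and the members lay at -0.54 to -1.42. Of the 4320 genes tested with a median transcript in the same range of lengths, 21.02% were lower past the threshold, with a median of -0.10. With each library's trend on transcript length removed, all 7 members passed, beside 34.2% of all genes lower. That correction moved the median of all genes to -0.22, and the members' median was -1.35, or -1.13 relative to it. Length removed and PBS replicate 3 left out together, all 7 passed beside 46.3% of all genes lower, at a median of -1.14, or -0.92 relative to all genes. The part of transcript length in the values of PBS replicate 3 was not tested otherwise.

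**Figure D4:**
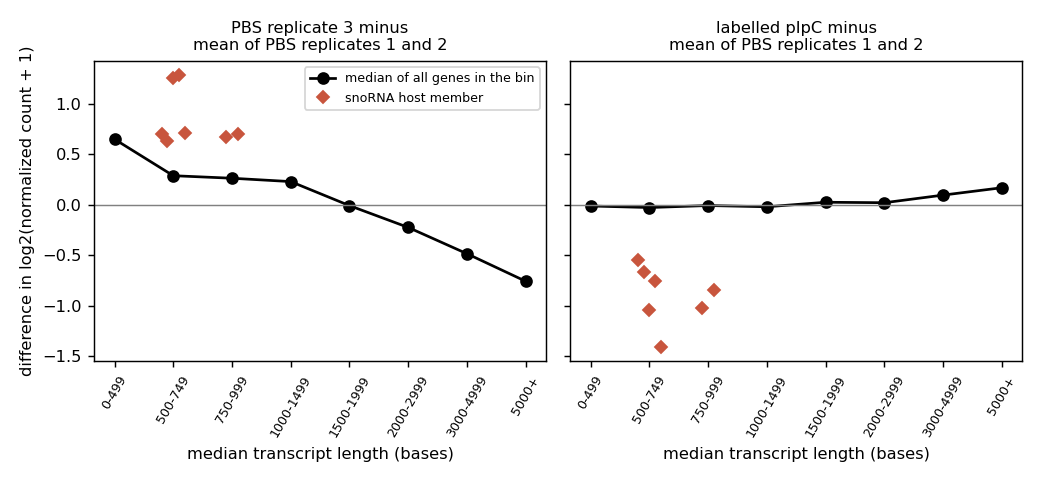
Difference in log2(normalized count + 1) against median transcript length, as the median of all genes in 8 bins (black) and for each tested member (red), for PBS replicate 3 (left) and for the libraries labelled pIpC (right), both against PBS replicates 1 and 2. The left curve runs from 0.65 to -0.76 with the members above it, and the right curve stays between -0.03 and 0.17 with the members below it.

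The 7 members moved together over the libraries. Pearson's r between pairs of them on the log2 scale ran from 0.94 to 0.99 over the 6 libraries (21 pairs), and from 0.88 with group means removed. These points share library and depth, and the group difference and PBS replicate 3 set most of their spread, so r is given as a description. The genes most like the members' mean were Rcan1 (r = 0.9997), an inhibitor of calcineurin, Atp6v1h (r = 0.9992), a subunit of the vacuolar proton pump, Mad2l2 (r = 0.9988), a factor of translesion DNA synthesis, Actr6 (r = 0.9984), an actin-related protein, and Timm44 (r = 0.9982), part of the import motor of mitochondria. Their log2 fold changes were -0.90, -0.66, -1.28, -0.74 and -0.33, and r was at least 0.95 for 993 of 15013 genes (6.61%).

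The windows around the annotated starts are shown because the members moved together. RefSeq (GRCm38.p6) gave 8 starts for 7 members, 2 of them in Gas5; Snhg6 was not matched. Each window below spans 60 bases before the start to 49 after it, on the strand of the gene, and capitals mark TATA found 45 to 15 bases before the start and the longest run of C and T that touches the 5 bases on either side of the start.
Gas5, chr1:161034541-161034650, plus strand: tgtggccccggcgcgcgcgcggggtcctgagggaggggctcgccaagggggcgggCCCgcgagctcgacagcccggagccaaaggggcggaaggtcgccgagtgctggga
Gas5, chr1:161035106-161035215, plus strand: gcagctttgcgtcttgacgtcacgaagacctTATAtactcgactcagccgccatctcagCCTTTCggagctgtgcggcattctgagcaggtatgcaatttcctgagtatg
Snhg1, chr19:8723427-8723536, plus strand: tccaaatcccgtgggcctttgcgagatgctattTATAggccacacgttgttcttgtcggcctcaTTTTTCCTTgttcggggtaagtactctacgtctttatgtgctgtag
Snhg3, chr4:132353637-132353746, minus strand: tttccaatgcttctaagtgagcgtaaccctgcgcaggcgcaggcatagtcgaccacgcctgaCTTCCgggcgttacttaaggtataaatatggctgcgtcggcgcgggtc
Snhg5, chr9:88522848-88522957, minus strand: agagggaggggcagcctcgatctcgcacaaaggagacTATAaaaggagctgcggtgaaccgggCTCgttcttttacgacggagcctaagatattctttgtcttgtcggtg
Snhg8, chr3:123508287-123508396, minus strand: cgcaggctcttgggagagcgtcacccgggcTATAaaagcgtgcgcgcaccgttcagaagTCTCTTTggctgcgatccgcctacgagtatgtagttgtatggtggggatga
Snhg12, chr4:132308618-132308727, plus strand: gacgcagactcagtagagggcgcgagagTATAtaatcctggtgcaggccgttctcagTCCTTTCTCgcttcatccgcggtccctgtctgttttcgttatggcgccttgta
Snhg15, chr11:6528711-6528820, minus strand: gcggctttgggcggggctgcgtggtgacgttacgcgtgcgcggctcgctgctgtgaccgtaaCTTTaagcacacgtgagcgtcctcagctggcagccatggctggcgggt

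TATA, which reads the same on both strands, was present in 5 of the 8 starts (62.5%), in Snhg1, Snhg5, Snhg8, Snhg12 and the downstream start of Gas5, and in 6.7% of all 32851 promoters of the table. A run of at least 5 C or T on the strand of the gene was present at 5 of the 8 starts (62.5%), in Snhg1, Snhg3, Snhg8, Snhg12 and the downstream start of Gas5, and at 32.9% of all promoters. These matches describe the letters and show no use of a site. The single start of Snhg15, the member with the lowest log2 fold change, had a run of 4 and no TATA.

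The neighbours of the members did not pass the test. Zbtb37, a zinc finger gene that starts 427 bases from Gas5 on the other strand, was at 394, 421 and 62.2 across the PBS libraries and at 459, 787 and 476 across those labelled pIpC, with PBS replicate 3 far below all others. Its log2 fold change was 1.35 (SE 0.73, limma adjusted p = 0.192), and 0.45 (limma adjusted p = 0.0993) without that library, which passes. Slc3a2, the heavy chain of an amino acid transporter, starts 106 bases from Snhg1 on the other strand. Its counts were 1743, 1889 and 2258 across the PBS libraries and 1714, 1456 and 1622 across those labelled pIpC, so the groups were apart by a narrow margin. The log2 fold change was -0.29 (SE 0.14, limma adjusted p = 0.155), and -0.19 (limma adjusted p = 0.0898) without PBS replicate 3, which passes. Rcc1, a chromatin-bound exchange factor for Ran, was at 0.11 (limma adjusted p = 0.506), Gm17300 at 0.57 (limma adjusted p = 0.162) and Mcmdc2 at -0.35 (limma adjusted p = 0.577). The libraries are unstranded per the labels, so reads of genes that overlap on opposite strands cannot be told apart.

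Other noncoding snoRNA host genes gave a mixed picture. Of 17 listed, 15 were matched and 11 tested, and 6 were lower past the threshold, beside 20.4% of all genes tested, and none was higher. The median log2 fold change was -0.99. The 6 were Snhg11 (-5.40), Epb41l4aos (-1.83), 2410006H16Rik (-1.42), Snhg20 (-1.17), Snhg16 (-1.09) and Snhg17 (-0.99). Snhg11 had 282, 363 and 311 normalized counts across the PBS libraries and 4.99, 7.15 and 7.74 across those labelled pIpC (SE 0.26, limma adjusted p = 2.9e-05). Snhg17 was even across PBS, at 1084, 1150 and 1106 in replicates 1 to 3, and at 602, 497 and 581 across those labelled pIpC, and its log2 fold change was -0.9995 without PBS replicate 3. Snhg14, the highest of the list, was at 0.43 (SE 1.09, limma adjusted p = 0.777) and turned to -0.90 (limma adjusted p = 0.0629) without PBS replicate 3, which held 1.13 against 40.7 and 27.3 in PBS replicates 1 and 2. Zfas1, host of a set of box C/D snoRNAs, was at -0.37 (limma adjusted p = 0.429), and at 0.03 without PBS replicate 3.

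Protein-coding hosts, most of which encode ribosomal proteins and translation factors, fell in 23 of 30, none rose, and 7 did not pass, with a median of -0.78, beside 20.4% of all genes lower. Rpl17, a protein of the large ribosomal subunit, had the lowest value, -1.28 (SE 0.38, limma adjusted p = 0.0365), and -0.83 without PBS replicate 3. The count was 28 without PBS replicate 3, beside 30.6% of all genes lower. Without pIpC replicates 1, 2 and 3 it was 10, 5 and 6, beside 14%, 12.4% and 12.7% of all genes lower.

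Of 16 translation genes with a 5 prime TOP motif, 12 fell, beside 20.4% of all genes lower, none rose, and the median was -0.71. Tpt1, which is also a snoRNA host, was lowest at -1.21 (SE 0.34, limma adjusted p = 0.0317), and Eif4b was highest at -0.05 (limma adjusted p = 0.869). Tpt1, Rack1, Eef2 and Eef1b2 are in both lists, 13.3% of the hosts and 25% of the TOP genes. Without pIpC replicates 1, 2 and 3 the count was 4, 1 and 2, where 14%, 12.4% and 12.7% of all genes were lower, so that without replicate 2 or 3 the list's share, 1 or 2 of 16, was no higher than the background. Without PBS replicate 3 it was 15, where 30.6% were lower. Eef2, the elongation factor that moves the ribosome along, had nearly equal PBS values, 57344, 55487 and 54101 in replicates 1 to 3 against 33702, 35266 and 34957 across those labelled pIpC.

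Proteins that assemble or form the snoRNA particle fell in 8 of 18, none rose, and 10 did not pass, with a median of -0.60, beside 20.4% of all genes lower. Nop56, Nop58 and Dkc1 are also protein-coding snoRNA hosts, 16.7% of this list and 10% of that one. The 8 were the assembly factors Nufip1 (-1.26), Znhit6 (-1.20), Naf1 (-0.84), Ruvbl1 (-0.77) and Shq1 (-0.75), the U3 protein Rrp9 (-1.04), and the box C/D core proteins Nop56 (-0.73) and Nop58 (-0.69). Nufip1, the lowest, was at 699, 675 and 1336 across the PBS libraries and 394, 313 and 371 across those labelled pIpC (SE 0.28, limma adjusted p = 0.0133). Fbl, the methyltransferase of box C/D particles, was at -0.53 (limma adjusted p = 0.212), and the pseudouridine synthase Dkc1 was at -0.27 (limma adjusted p = 0.216). Znhit3 was highest, at -0.16 (limma adjusted p = 0.605). Leaving out pIpC replicate 2 or pIpC replicate 3 gave 5 lower genes, beside 12.4% and 12.7% of all genes.

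Of 16 nonsense-mediated decay factors tested, 3 were higher (Smg9, Smg8 and Upf2) and 1 was lower (Upf3a), beside 25% of all genes higher and 20.4% lower, so neither count stood above the background. The other 12 did not pass. The median over all 16 was 0.19, which turned to -0.08 with the length trend removed. Smg9, a regulator of the kinase Smg1, was highest at 0.66 (SE 0.20, limma adjusted p = 0.0396). Upf3a was lowest at -0.81 (SE 0.29, limma adjusted p = 0.0728). Upf1, the helicase at the center of the pathway, was at -0.03 (limma adjusted p = 0.863). Without PBS replicate 3, 6 were higher and 2 lower, beside 34.5% and 30.6% of all genes. With the length trend removed 2 were higher and 3 lower, beside 19.6% and 34.2%.

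**Figure D5:**
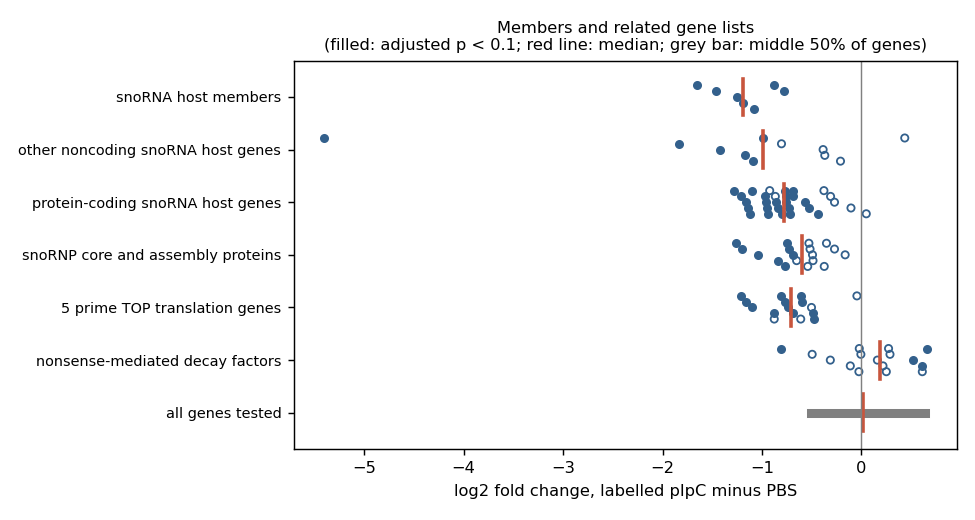
Log2 fold change, labelled pIpC minus PBS, of each tested gene in the members and in 5 related lists, filled where the adjusted p from limma was under 0.1, with a red line at each median and a grey bar for the middle 50% of all genes tested. Medians run from -1.19 for the members to 0.19 for the nonsense-mediated decay factors (-0.08 with the length trend removed), beside 0.01 for all genes.

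Markers of blood and marrow cell types, and genes of MLL-AF9 self-renewal, differed between the groups as well. All 14 myeloid markers had reads in both groups, and 10 were higher and 1 lower past the threshold. Of all genes tested, 25% were higher and 20.4% lower, shares that stand beside each count of markers in this paragraph. The summed normalized count of the myeloid markers was 120677 to 183309 in PBS and 2074906 to 2164997 in the libraries labelled pIpC. Elane, a neutrophil protease, led in PBS (73148) and Ngp, a neutrophil granule gene, in the libraries labelled pIpC (602247). The sum over 7 genes tied to self-renewal of MLL-AF9 cells was 11698 to 11800.1 in PBS and 2151 to 2515 in the other group, with 4 lower and 3 higher past the threshold, led by Hoxa9 (5130.0) in PBS and Mef2c (1086) in the libraries labelled pIpC. The 10 erythroid markers, all higher past the threshold, summed to 22.5 to 34.0 in PBS, where Slc4a1 was at 0 and Klf1 led (12.1), and to 3820.1 to 5417 in the libraries labelled pIpC, led by Hba-a1 (1373). The 11 B cell markers, again all higher, summed to 139 to 307 in PBS, with Ms4a1 at 0, and to 1578 to 2982, led by Cd79b in both (174 and 394). Summed T and NK cell markers, of which 8 of the 9 tested were higher and 1 lower, were at 739.9 to 763 in PBS and at 4102 to 4679 in the other group, led by Bcl11b (514) and then Nkg7 (4023), and the 12 macrophage and stromal markers, 8 higher and 2 lower, were at 11624 to 16904 and at 7807 to 9578, led by Vcam1 in both (8421 and 4444). The part of these cell types in the lower counts of the snoRNA hosts was not tested.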

How the data were processed

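The 6 RNA-seq samples comprise 3 PBS and 3 pIpC libraries. The deposited signal is a table of normalized counts per gene made by the authors. The submitters' processing notes name HISAT2 2.2.1, SAMtools, featureCounts, Subread, edgeR and GRCm38, and the labels state poly(A) selection and unstranded TruSeq libraries. The study's methods state stranded libraries, mm10, nf-core/rnaseq with STAR and RSEM, and DESeq2. Every value above 0 was a whole multiple of the column's lowest value (100% of values, tolerance 0.02 reads), which gave whole reads, 19277439 to 23586722 per library. All columns were used. Of 55487 genes, 55141 matched GENCODE M21 (GRCm38).

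The test was limma 3.58.1 (R 4.3.3) on log2(normalized count + 1), the prior variance following intensity, for genes averaging 10 or more normalized counts, with Benjamini-Hochberg adjusted p under 0.1 and no covariate. The pseudocount understates changes of low genes. Brd9 had an exact permutation test as well. Alternatives were pseudocounts of 0.1 and 10, no filter, a minimum mean of 50, quantile normalization, median centring, a replicate block, each library left out, no intensity trend, edgeR 4.0.16 and DESeq2 1.42.0 on the whole reads, and an adjusted p under 0.05. Removal of each library's loess trend (span 0.5) (on transcript length or on GC) was chosen after seeing the data. Lists were described by counts and medians, with no set test. The scripts were tested on simulated data. Named were every member, Brd9, neighbours that start within 1000 bases on the other strand or overlap exons, snoRNAs by mean count, the highest and lowest gene of each list (not all are reported here), the 5 genes most like the members and the leading marker of each cell type; others were named after their values were seen. The members and lists were chosen with earlier results of these data known.

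The chi-square statistic per gene between libraries of 1 group ran from 6.66 to 208, so every pair differed by more than sampling noise.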

Additional observations from a re-analysis of the deposited data

How the results depend on the processing

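The 7 tested members kept their direction under all 20 alternatives. All 7 passed in every alternative apart from leaving out pIpC replicate 2 or 3, which gave 5, without Gas5 and Snhg8, beside 12.4% and 12.7% of all genes lower. Their median log2 fold change was between -1.51 and -0.84. Its shift from the main value of -1.19 stayed below the standard deviation between libraries of the members' mean log2 value (0.38) throughout. PBS replicate 3 itself widens that standard deviation, so this comparison cannot judge the effect of leaving out a library. Leaving out 1 library at a time gave a median of -1.40 to -0.84. Snhg3 entered the test only with no filter on low counts. Brd9 turned to -0.033 with the transcript length trend removed, -0.12 with the GC trend removed and -0.072 with the length trend and PBS replicate 3 removed, where it did not pass in any of these. The count of all genes changed rose from 6808 to 10742 in the last of these settings, and quantile normalization shifted the split of higher against lower genes from 3750 and 3058 to 3244 and 4078, with the median of all genes at -0.12. Length removal gave 2951 higher and 5143 lower genes, GC removal 2959 and 4959.

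Other noncoding snoRNA host genes, 6 lower in the main test, ranged from 5 to 7 with 1 library left out. There 12.4% to 30.6% of all genes were lower. With the length trend and PBS replicate 3 removed they were 9, beside 46.3% of all genes lower. Counts of lower genes in the other related lists moved more, and so did the background. Of all genes tested, 3058 were lower in the main test, 4078 under quantile normalization and 3628 with DESeq2. With no intensity trend 2881 were lower, with the GC trend removed 4959 and with the length trend removed 5143. With the length trend and PBS replicate 3 removed 6948 were lower. The counts at an adjusted p under 0.05 stand without such a background. Protein-coding snoRNA host genes fell from 23 to 13 at an adjusted p under 0.05 and ranged from 5 to 28 with 1 library left out. Proteins of the snoRNA particle went from 8 to 5 at 0.05, to 13 with the length trend or the GC trend removed and to 16 with the length trend and PBS replicate 3 removed, and ranged from 5 to 11 with 1 library left out. The 5 prime TOP genes ranged from 1 to 15 with 1 library left out, and were 16 with the length trend and PBS replicate 3 removed. Decay factors, 1 in the main test, were 2 under quantile normalization, DESeq2 and GC removal, 3 with the length trend removed, 6 with PBS replicate 3 removed as well, and 0 with no intensity trend or at 0.05, and ranged from 0 to 2 with 1 library left out. The cause of these shifts was not tested.

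Replicate numbers are shared by the groups, but the deviations of same-numbered libraries from their group means correlated at -0.117, 0.143 and 0.041, and 2 of 6 libraries correlated best with their own number, so the numbers are not taken as pairs. With a replicate block 6095 genes passed in place of 6808, and all 7 members passed.

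Some values rest on a few reads or none, among them those of Snhg3, the snoRNAs, Snhg14 in PBS replicate 3, Snhg11 in the libraries labelled pIpC, and the markers Slc4a1 and Ms4a1 in PBS. For the snoRNAs and Snhg3, depth cannot be told apart from poly(A) selection or from bases shared with other genes.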
